A study of Mus musculus with 12 samples.

Results

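Collagen genes were read in mouse retina that lacked or carried Pilrb1/2, at 12 months of age and 28 days after birth (P28). The members were the protein-coding genes on primary chromosomes whose symbol has the form of a collagen chain (Col, a type number, a and a chain number), 44 of the 53028 genes in the deposited table. They were separated into 11 fibrillar chains, 8 basement membrane chains and 25 other chains. A filter on low values, which kept genes with a CPM of 1 or more in 3 or more libraries of the 12, was passed by 38 of the 44 (10 fibrillar, 8 basement membrane and 20 other) and by 16486 genes in all. CPM is the deposited gene value, the authors' read count relative to library size, scaled by a TMM factor per library. Each of the 4 groups held 3 libraries of poly(A) RNA from retina: 12-month Pilrb1/2 -/-, 12-month Pilrb1/2+/+, P28 Pilrb1/2 -/- and P28 Pilrb1/2+/+, called knockout and wild type here. The series text describes a germline CRISPR deletion in C57BL/6J zygotes that took Pilra as well as Pilrb1/2, followed by backcrossing to C57BL/6J, while the sample labels name Pilrb1/2 only. Whether the 3 libraries of 1 group stem from different animals is not in the labels, and p-values here cover the spread among libraries and nothing else.

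Collagens are extracellular proteins built of 3 chains wound into a triple helix. Fibrillar types form cross-striated fibres, with type II and the type V/XI chains making the thin fibrils of the vitreous gel, and type IX sits on the surface of those fibrils. Type IV chains assemble into the sheet-like network of basement membranes. In the eye these sheets include the inner limiting membrane between retina and vitreous and the walls of retinal vessels. Other members carry a membrane-spanning segment, form beaded filaments or anchor basement membranes to the tissue beneath.

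The depth read back from the low values was 15.6 to 27.1 M reads a library, so that 3 reads, used as a floor that covers counting error only, equal 0.111 to 0.192 CPM. The targeted genes could not check the labels, because Pilrb1 and Pilrb2 were listed at 0 in 11 of the 12 libraries each and Pilra was low. Pilra did not follow the deletion in the series text, since it was at 0.441 to 1.16 CPM in P28 knockout, against 0.133 to 0.171 CPM in P28 wild type, without overlap. At 12 months it was at 0.0556 to 0.309 CPM in knockout and 0.159 to 0.268 CPM in wild type. The rod and Mueller glia markers, read as a check of the tissue label, were all above the floor in all 12 libraries. The summed rod list was 19950 to 26810 CPM in 12-month knockout and 33850 to 40910 CPM in 12-month wild type. At P28 it was 20360 to 26470 CPM in knockout and 29880 to 40400 CPM in wild type. By Xist, 0 of 3 libraries were female in 12-month knockout, 2 of 3 in 12-month wild type, 2 of 3 in P28 knockout and 0 of 3 in P28 wild type. Of the lens markers Mip set 3 libraries apart, which are called lens-rich here by Mip alone. Mip, the lens fibre water channel, was at 67.7 CPM in 12-month knockout library 2, 243 CPM in P28 knockout library 2 and 69.1 CPM in P28 wild-type library 3, and at most 4.05 CPM in the other 9. Of the 11 lens genes read 8 were above the floor in every library, and Lim2 was at 0 in 9 libraries. The lens sum spanned 14.03 to 663 CPM in 12-month knockout and 9.66 to 46.96 CPM in 12-month wild type. Its P28 span was 34.9 to 4879 CPM in knockout and 13.1 to 1726 CPM in wild type, where library 2, with little Mip, had 589 CPM, mostly of the crystallin genes Cryaa and Cryba1. Cryba4, Crybb1, Crybb3, Crygs and Lgsn were higher in P28 wild-type library 2 than in 12-month knockout library 2. The other lens genes were lower there. Results that rest on the 3 libraries with high Mip are given with and without them, a choice made after seeing the data. Fits without these 3 libraries keep P28 wild-type library 2.

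The collagen with the highest level per length was Col9a1, the alpha 1 chain of type IX collagen, at a mean of 24.5 RPKM (summed over its transcripts) across the 12 libraries. Col4a3, a type IV chain, followed at 13.1 RPKM and Col23a1, a transmembrane collagen, at 10.6 RPKM. Within the groups Col9a1 led at P28 only, with a mean of 38.9 RPKM in knockout and 25.9 RPKM in wild type, where Col4a3 averaged 3.502 RPKM in knockout and 3.15 RPKM in wild type. At 12 months Col4a3 was highest, at 25.1 RPKM in knockout and 20.8 RPKM in wild type, and Col9a1 next, at 19.5 RPKM in knockout and 13.6 RPKM in wild type. Col4a1 averaged 6.96 RPKM over all libraries, the fourth highest, but 2.74 RPKM and rank 13 of 44 over the 9 without high Mip. Next came Col6a1 at 6.8 RPKM, Col25a1 at 5.43 RPKM, Col4a5 at 5.33 RPKM and Col2a1 at 5.05 RPKM. Of the type I genes, which dominate skin and bone, Col1a2 was in the middle of the order, rank 21 at 1.15 RPKM, and Col1a1 near the bottom, rank 43 at 0.107 RPKM. In the plot of levels by class each class spans more than a factor of 10 between its highest and lowest gene. Type IV chains made up a median of 35.7% of all collagen RPKM in 12-month knockout (range 33.3 to 46.4%) and 30.8% in 12-month wild type (29.75 to 30.9%). At P28 the median was 9.83% in knockout (9.72 to 38.7%) and 12.3% in wild type (11.7 to 35.2%), each upper end being the lens-rich library of its group. The 6 genes that failed the filter were Col1a1, Col10a1, Col13a1, Col14a1, Col16a1 and Col28a1. In bulk retina fewer cells of a type and less RNA per cell cannot be told apart.

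**Figure D1:**
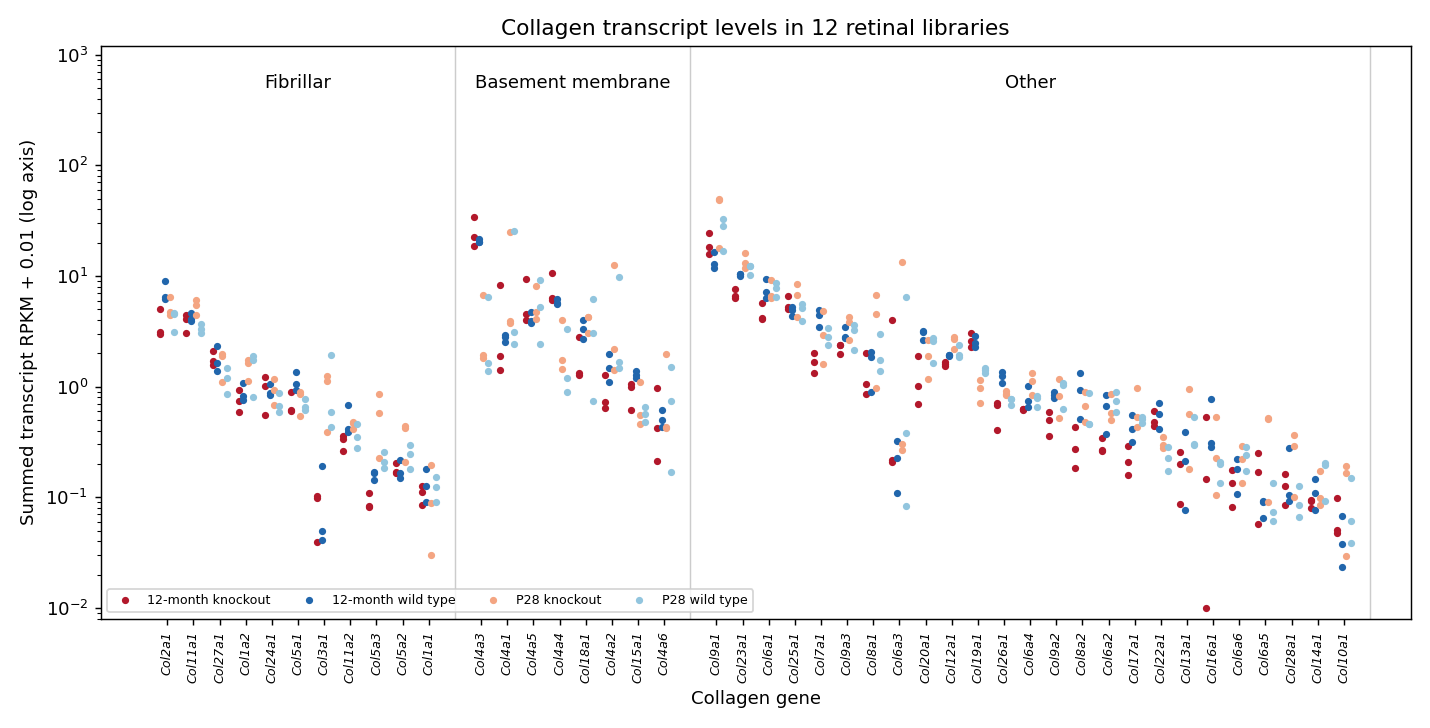
Summed transcript RPKM of the 44 collagen genes in every library, on a log axis with 0.01 added, by class and in order of mean level; each dot is 1 library and colours mark the 4 groups. Col9a1 has the highest mean over all libraries, 24.5 RPKM, though Col4a3 is above it in both 12-month group means, and Col10a1 is last with 0.0703 RPKM.

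Col9a1 (ENSMUSG00000026147, GRCm38 chromosome 1, 24177610 to 24252684, plus strand) was read almost entirely from 1 of its coding forms. The short transcript Col9a1-202, which starts inside an intron of the long coding transcript, held 91.8 to 97.6% of the gene's RPKM in the 12 libraries, while the long one held 0 to 1.31%. The short form lacks the N-terminal globular domain, and in the chick eye it is the form known from the vitreous. The bases upstream of each start are shown because they are the DNA that separates the form read here from the one that was barely read. Both are RefSeq sequence of GRCm38.p6, plus strand, 5′ to 3′, in lower case with any CpG in capitals. The internal stretch is chr1:24194953-24195186 and the upstream one chr1:24177360-24177609.
Col9a1 internal start: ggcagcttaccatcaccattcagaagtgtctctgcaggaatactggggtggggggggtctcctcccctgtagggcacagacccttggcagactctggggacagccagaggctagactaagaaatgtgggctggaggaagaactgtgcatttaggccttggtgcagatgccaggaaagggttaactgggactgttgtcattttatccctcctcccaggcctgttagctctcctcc
Col9a1 upstream start: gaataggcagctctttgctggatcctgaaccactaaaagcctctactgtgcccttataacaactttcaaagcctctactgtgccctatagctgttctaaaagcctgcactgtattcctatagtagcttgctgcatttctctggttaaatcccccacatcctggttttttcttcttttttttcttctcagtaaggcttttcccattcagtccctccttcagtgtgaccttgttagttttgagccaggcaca
Neither stretch held a CpG, and the 300-base RefSeq windows around them, which run past the annotated starts, held 1 and 0 against a median of 7 in all 32851 windows. The GC box GGGCGG and the TATA box TATAAA, searched on both strands, were in neither window, and 35.7% and 13.6% of all windows held them. The CCAAT box CCAAT occurred 1 time in the internal window, past the printed bases, and in 37.4% of all windows. RefSeq windows were found for 35 of the 44 members.

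Col9a1 was at 47.8, 69 and 54.2 CPM in 12-month knockout, against 147, 56.5 and 143 CPM in P28 knockout. In wild type it was at 35.9, 38.3 and 49.4 CPM in 12-month wild type, against 83.5, 49.8 and 93.2 CPM in P28 wild type. The wild-type ages did not overlap, and the knockout ages overlapped through P28 knockout library 2, the most lens-rich library. The 12-month minus P28 difference was -0.90 ± 0.32 (SE; limma adjusted p = 0.055) in knockout and -0.82 ± 0.32 (SE; limma adjusted p = 0.181) in wild type, on the log2(CPM + 1) scale used for every difference below, and neither passed. Without the 3 lens-rich libraries the knockout difference was -1.496 (adjusted p = 0.000842) and the P28 knockout minus wild-type difference 1.16 (adjusted p = 0.0134, against 0.54 ± 0.32 (SE; limma adjusted p = 0.357) with them). The plot of its transcripts shows the same libraries standing out in the short form. Its partner chains were lower, with Col9a3 at 2.94 RPKM and Col9a2 at 0.76 RPKM. Optc, which encodes opticin of the vitreous and ciliary epithelium, was at 2.55 CPM in P28 wild-type library 2, where Col9a1 was lowest of its group, and at 12 to 64 CPM elsewhere. P28 knockout went the other way, with Optc highest, at 52.5 CPM, in library 2, where Col9a1 was lowest of that group. The summed list of 4 ciliary and vitreous markers, all above the floor in every library, was 32.8 to 50.1 CPM in 12-month knockout, 40.2 to 65.3 CPM in 12-month wild type. At P28 that sum was 60.03 to 85.2 CPM in knockout and 22.6 to 103 CPM in wild type. The part of these markers in the Col9a1 values was not tested.

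**Figure D2:**
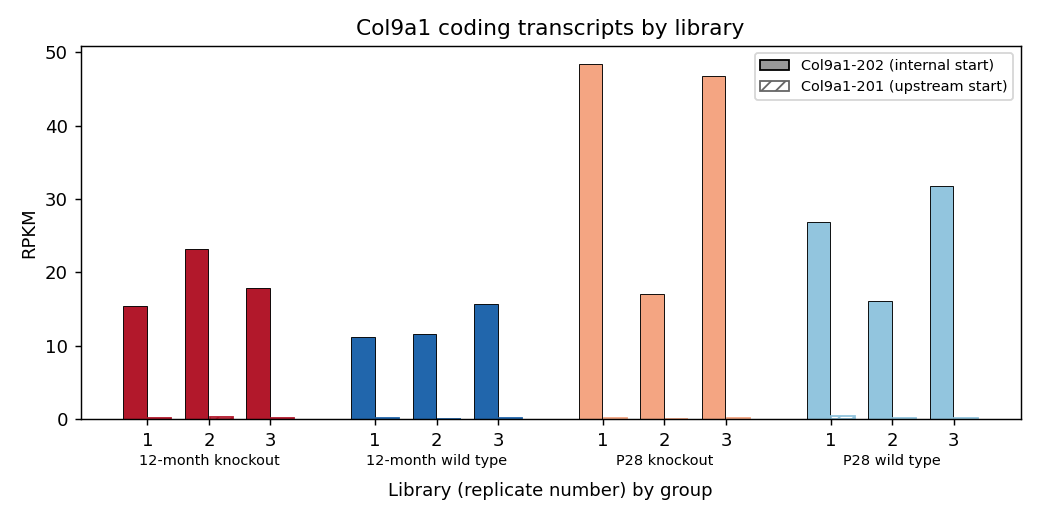
RPKM of the 2 annotated coding transcripts of Col9a1 in each library, filled bars for the short Col9a1-202 and hatched bars for the long form, with replicate numbers along the axis. Col9a1-202 reached 48.5 RPKM in P28 knockout library 1, while the long form did not exceed 0.372 RPKM.

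Among the basement membrane genes 2 rose with age in both genotypes, though in wild type neither passed with a term for sex. Col4a3 (ENSMUSG00000079465) and Col4a4 (ENSMUSG00000067158) encode the alpha 3 and alpha 4 chains of type IV collagen, which assemble with the alpha 5 chain and whose loss causes Alport disease in humans. Col4a3 was at 162, 275 and 189 CPM in 12-month knockout, against 15.1, 60.6 and 16.2 CPM in P28 knockout. The wild-type values were 178, 175 and 189 CPM in 12-month wild type, against 11.7, 13.9 and 52.5 CPM in P28 wild type. The lowest 12-month library was above the highest P28 library in each genotype, and the difference was 2.99 ± 0.53 (SE; limma adjusted p = 0.00223) in knockout and 3.07 ± 0.53 (SE; limma adjusted p = 0.00425) in wild type. Col4a4 was at 64, 101.5 and 60.3 CPM in 12-month knockout, against 14.2, 42.2 and 17.2 CPM in P28 knockout. Its wild-type values were 56.6, 57.6 and 62.6 CPM in 12-month wild type, against 8.77, 11.8 and 32.2 CPM in P28 wild type. The ages again did not overlap, with a difference of 1.7 ± 0.43 (SE; limma adjusted p = 0.0124) in knockout and 1.9 ± 0.43 (SE; limma adjusted p = 0.0207) in wild type. Knockout and wild type overlapped at both ages for both genes. At 12 months the knockout minus wild-type difference had a 95% interval of -0.98 to 1.32 for Col4a3 and -0.61 to 1.23 for Col4a4.

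The 2 genes lie head to head on chromosome 1, Col4a4 from 82448423 to 82586849 on the minus strand and Col4a3 from 82586921 to 82722059 on the plus strand. The 71 bases between their annotated starts are shown because both genes that rose with age begin at its ends. It is RefSeq sequence of GRCm38.p6, chr1:82586850-82586920, on the minus strand as Col4a4 is read, with CpG in capitals.
Col4a4 and Col4a3 gap: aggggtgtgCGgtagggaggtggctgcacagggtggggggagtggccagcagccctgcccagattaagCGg
Its GC content was 69.0% and it held 2 CpG, and the 300-base window around it held 14. The GC box, CCAAT box and TATA box letters were not in that window. The other 4 type IV genes are paired head to head in the same way, Col4a1 with Col4a2 on chromosome 8, overlapping by 22 bases, and Col4a6 with Col4a5 on the X chromosome, 1308 bases apart, and none of these 4 passed in either genotype.

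Col4a5, the third chain of that trimer, was at 18.5, 40.9 and 20.5 CPM in 12-month knockout, against 21.3, 38.6 and 18.6 CPM in P28 knockout. Its levels in wild type were 17.5, 18 and 22.1 CPM in 12-month wild type, against 23.8, 11 and 40.0 CPM in P28 wild type. The ages overlapped in both genotypes, and the difference was 0.01 ± 0.40 (SE; limma adjusted p = 0.993) in knockout, with a 95% interval of -0.86 to 0.88. Col4a1, whose product pairs with that of Col4a2 in nearly all basement membranes, was at 6.84, 40.5 and 9.72 CPM in 12-month knockout, against 19.5, 131 and 18.2 CPM in P28 knockout. In wild type it was at 15.5, 13.2 and 14.6 CPM in 12-month wild type, against 12.5, 16.5 and 124 CPM in P28 wild type. In each of the 3 lens-rich libraries it was 4.16 to 7.53 times the next highest library of the group. The plot of type IV chains shows the same 3 libraries on top for all 6 chains.

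**Figure D3:**
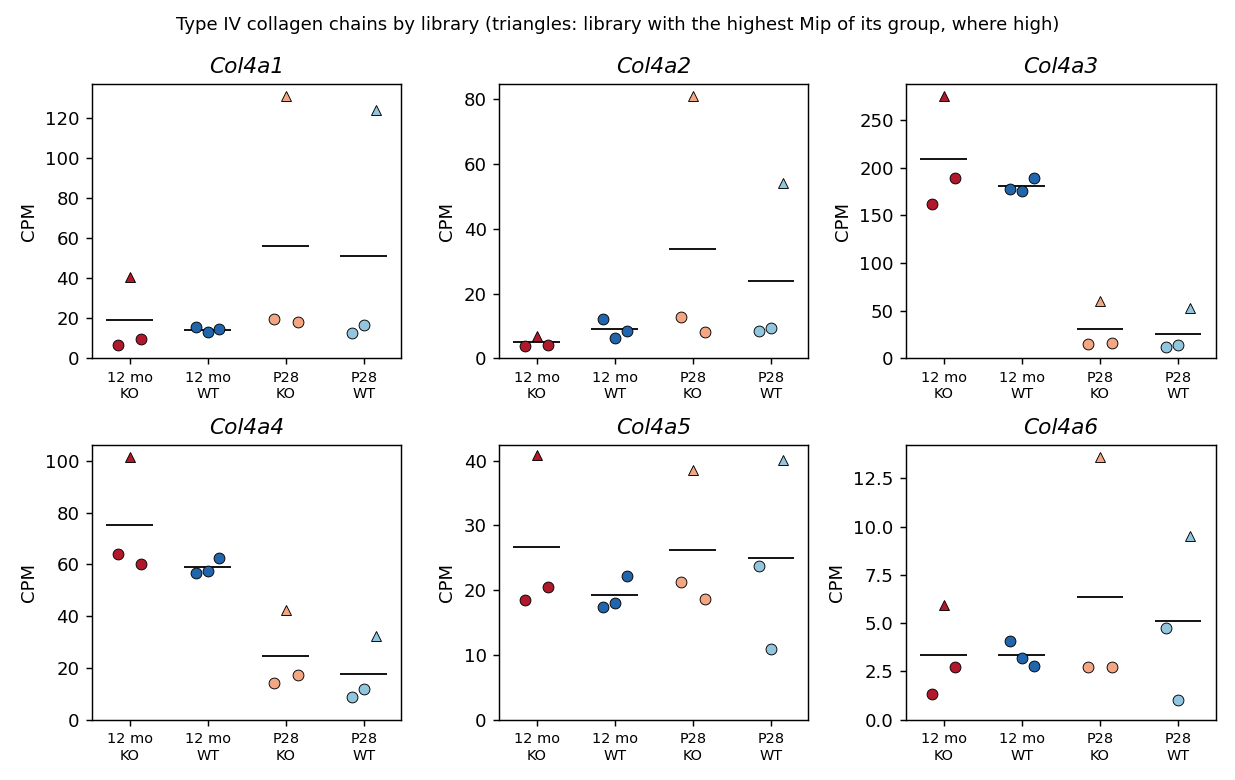
CPM of the 6 type IV collagen genes in each library, by group, with the group mean as a line; triangles are the library with the highest Mip of a group where that gene was high. Col4a3 and Col4a4 are high in all 6 libraries of 12 months, while Col4a1 and Col4a2 are high mainly in the P28 triangles.

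The lens-rich libraries were the highest of their group in 9 of the 38 tested members, against 3.48% of all tested genes. These were the 6 type IV chains, Col6a3, Col19a1 and Col22a1. Col6a3, a chain of the beaded filament type VI, moved most, with 0.662, 12.6 and 0.647 CPM in 12-month knockout and 0.944, 44.6 and 0.857 CPM in P28 knockout. The wild-type values were 0.264, 0.678 and 0.988 CPM in 12-month wild type and 0.209, 1.19 and 20.5 CPM in P28 wild type. All 3 high values were the lens-rich libraries. Without them the age difference of Col4a3 was 3.40 in knockout and 3.73 in wild type, and that of Col4a4 1.93 and 2.42, so both remained past the threshold. Without them Col4a1 also passed for age in knockout, at -1.11 (adjusted p = 0.00193), and for knockout minus wild type at 12 months, at -0.75 (adjusted p = 0.00757). For these 2 comparisons of Col4a1 the values with all libraries were -1.3 ± 0.87 (SE; limma adjusted p = 0.278) and -0.02 ± 0.87 (SE; limma adjusted p = 0.986).

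Across all members 16 of 38 passed between 12 months and P28 in knockout, 3 higher and 13 lower, where 27.2% of all tested genes passed, 13.3% higher and 13.9% lower. In wild type 5 passed, 4 higher and 1 lower, against 5.4% of all genes, 3.65% higher and 1.75% lower. The knockout and wild-type libraries are separate, but both age differences come from the same fit with a shared estimate of the spread. Of the calls 4 were shared with the same direction, Col4a3, Col4a4, Col19a1 and Col3a1, which is 25% of the knockout list and 80% of the wild-type list. The like overlap over all tested genes is not given here, so these shares are not read as particular to collagens. The median member difference was -0.60 in knockout and 0.04 in wild type, while that of all tested genes was -0.04 and 0.01. By class, 2 of 8 basement membrane genes were higher in each genotype. Of the 10 fibrillar genes 5 were lower in knockout and 1 in wild type. Of the 20 other genes 1 was higher and 8 lower in knockout, and 2 were higher in wild type. The counts moved with single libraries. The knockout count was 7 without P28 knockout library 1, 9 without 12-month knockout library 1 and 10 without 12-month knockout library 2. The wild-type count was 9 without P28 knockout library 2, 2 without 12-month wild-type library 1, and 3 without P28 wild-type library 1 or either of 12-month wild-type libraries 2 and 3. How the share of all tested genes moved in the same fits is not given here.

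**Figure D4:**
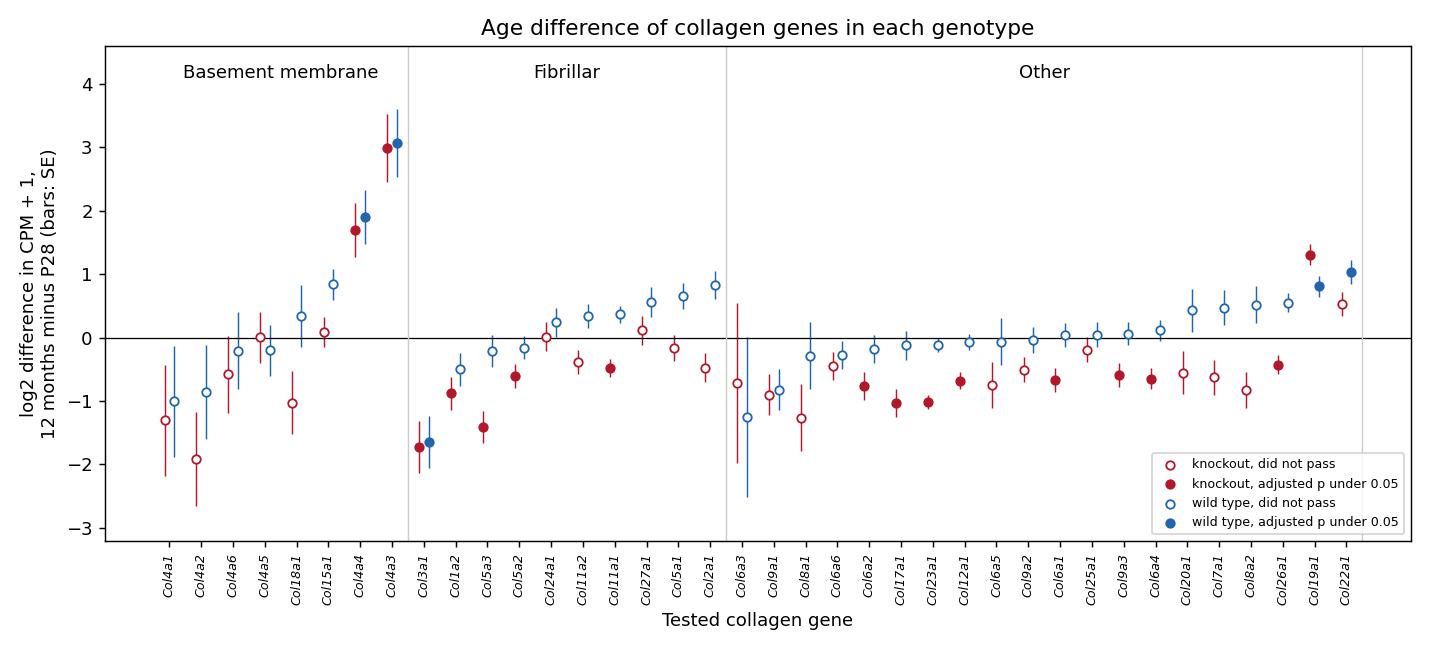
Difference between 12 months and P28 in log2(CPM + 1) with its standard error for the 38 tested collagen genes, red for knockout and blue for wild type, filled where the adjusted p was under 0.05. Col4a3 and Col4a4 are filled above 0 in both genotypes and Col3a1 below 0, while the remaining filled points below 0 are knockout only.

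Col19a1, a fibril-associated collagen that neurons make and that mouse hippocampus needs for inhibitory synapses, was at 12, 15.3 and 13.5 CPM in 12-month knockout, against 3.65, 6.29 and 5.04 CPM in P28 knockout. Its levels in wild type were 15.3, 13.2 and 12.1 CPM in 12-month wild type, against 7.33, 6.92 and 7.47 CPM in P28 wild type. The ages did not overlap in either genotype, and it rose by 1.31 ± 0.16 (SE; limma adjusted p = 0.000255) in knockout and 0.81 ± 0.16 (SE; limma adjusted p = 0.012) in wild type. Col22a1, a fibril-associated collagen known from tissue junctions such as those of muscle and tendon, was at 3.72, 4.76 and 3.94 CPM in 12-month knockout, against 2.24, 3.001 and 2.42 CPM in P28 knockout. Its wild-type values were 3.46, 4.71 and 6.29 CPM in 12-month wild type, against 1.38, 1.84 and 2.23 CPM in P28 wild type. Its ages did not overlap in either genotype, but it passed in wild type alone, at 1.03 ± 0.19 (SE; limma adjusted p = 0.00654), with 0.53 ± 0.19 (SE; limma adjusted p = 0.053) in knockout. The difference between these 2 effects did not pass, at -0.50 ± 0.27 (SE; limma adjusted p = 0.247).

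Col3a1, a fibrillar collagen of vessel walls and loose connective tissue, was at 0.358, 0.0926 and 0.333 CPM in 12-month knockout, against 4.17, 1.42 and 4.71 CPM in P28 knockout. In wild type it was at 0.73, 0.104 and 0.131 CPM in 12-month wild type, against 7.44, 1.54 and 2.05 CPM in P28 wild type. The ages did not overlap, and it fell in both, at -1.72 ± 0.41 (SE; limma adjusted p = 0.0097) in knockout and -1.64 ± 0.41 (SE; limma adjusted p = 0.0365) in wild type. P28 wild-type library 1, with the highest Col3a1, also had the highest Dcn at 16.6 CPM and Lum at 3.13 CPM, fibroblast genes that were at or under 9.08 and 0.701 CPM in the other libraries. Summed over the 8 fibroblast markers, of which 6 were above the floor in all libraries, the range was 36.9 to 87.0 CPM in 12-month knockout, 50.1 to 68.6 CPM in 12-month wild type. At P28 the sum was 58.9 to 113 CPM in knockout and 25.2 to 108 CPM in wild type. P28 wild-type library 1, at 103 CPM, was under P28 knockout library 2 and P28 wild-type library 3, where Col3a1 was 1.42 and 2.05 CPM. Fmod and Fbln1 were also highest in P28 wild-type library 1, while Pdgfra, Ogn, Pi16 and Dpt were not. Dcn was 5.36 to 9.08 CPM at 12 months, where Col3a1 was lower, and 0.44 to 2.42 CPM in the remaining P28 libraries. The part of these markers in the Col3a1 values was not tested. Dpt, a further marker on that list, was at 0 in 6 libraries. The wild-type call for Col3a1 was kept in 5 of the 12 fits that left out 1 library, the knockout call in all 12.

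Col5a3, a minor fibrillar chain, was at 0.429, 0.417 and 0.585 CPM in 12-month knockout, against 4.92, 1.34 and 3.31 CPM in P28 knockout. The wild-type values were 0.793, 0.926 and 0.95 CPM in 12-month wild type, against 1.17, 1.45 and 0.976 CPM in P28 wild type. It fell in knockout, at -1.41 ± 0.25 (SE; limma adjusted p = 0.00247), and its wild-type difference was -0.21 ± 0.25 (SE; limma adjusted p = 0.692). Col12a1, a fibril-associated collagen, was at 15.4, 14 and 15.9 CPM in 12-month knockout, against 26.7, 27.1 and 20.8 CPM in P28 knockout. Its levels in wild type were 18.5, 18.6 and 18.9 CPM in 12-month wild type, against 18.2, 17.8 and 23.3 CPM in P28 wild type. It fell in knockout, at -0.68 ± 0.13 (SE; limma adjusted p = 0.00343), and its wild-type difference of -0.07 ± 0.13 (SE; limma adjusted p = 0.81) did not pass. Col17a1, a transmembrane collagen of hemidesmosomes, was at 1.06, 1.42 and 0.788 CPM in 12-month knockout, against 5.05, 2.34 and 2.75 CPM in P28 knockout. In wild type it was at 2.29, 1.63 and 3.07 CPM in 12-month wild type, against 2.62, 2.76 and 2.33 CPM in P28 wild type. It fell in knockout, at -1.03 ± 0.22 (SE; limma adjusted p = 0.00644), and its wild-type difference was -0.12 ± 0.22 (SE; limma adjusted p = 0.81). The remaining 8 lower in knockout were Col23a1, Col6a4, Col6a1, Col6a2, Col11a1, Col1a2, Col9a3 and Col5a2, with differences of -0.48 to -1.01, beside Col26a1 at -0.43 ± 0.15 (SE; limma adjusted p = 0.0494). For none of the genes called in knockout alone did the difference between the genotypes' age effects pass, except Col23a1.

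Removing from each library a smooth trend in transcript GC content and length left 8 of the knockout age calls, 7 of them among the original 16, namely Col3a1, Col4a3, Col4a4, Col5a3, Col12a1, Col19a1 and Col23a1. In wild type it left all 5 original calls and added Col15a1. With a term for sex 4 of the 5 wild-type age calls were lost. Col4a3 then had 2.76 (adjusted p = 0.0565), Col4a4 1.65 (adjusted p = 0.161), Col19a1 0.57 (adjusted p = 0.131) and Col3a1 -1.58 (adjusted p = 0.175). The 2 members that passed were Col22a1 and, not called without the term, Col2a1. In knockout Col4a3, Col4a4, Col19a1 and Col3a1 still passed with the sex term. Shares of all tested genes that passed with the trends removed or with the sex term are not given here. The calls lost and gained are therefore not read as particular to collagens. The sexes of the wild-type ages differed, with 2 of 3 female at 12 months and 0 of 3 at P28. The male 12-month wild-type library, number 3, had 189 CPM of Col4a3, and the 2 female ones had 178 and 175 CPM.

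At 12 months 11 of 38 members were lower in knockout than in wild type and 0 higher, where 39.6% of all tested genes passed, 23.5% lower and 16.1% higher. They comprised 2 of the 10 fibrillar genes (Col2a1 and Col5a1), 0 of the 8 basement membrane genes and 9 of the 20 others (Col6a1, Col6a2, Col7a1, Col8a2, Col9a2, Col17a1, Col20a1, Col23a1 and Col26a1). Knockout and wild-type libraries did not overlap for 17 members, all lower in knockout, against 59.1% of all genes, 32.2% lower and 27% higher. The median member difference was -0.29, and that of all tested genes -0.03. The knockout libraries also had the lower rod sums given above and no female library. Other marker sums that did not overlap were also lower in 12-month knockout. The Mueller glia sum was 2122 to 2395 CPM in knockout and 2422 to 2671 CPM in wild type. Of its 5 genes 3 were lower in knockout without overlap and 1, Aqp4, was higher. The sum of 4 erythrocyte markers was 4.06 to 9.35 CPM in knockout and 18.6 to 32.9 CPM in wild type, and that of 3 astrocyte markers 8.13 to 15.6 CPM in knockout and 17.4 to 18.5 CPM in wild type. The endothelium and pericyte sum overlapped, at 237 to 268 CPM in knockout and 257 to 272 CPM in wild type, but 7 of its 9 genes were lower in knockout without overlap and 1 higher, Cldn5 of endothelial tight junctions being at 0.262 to 0.639 CPM in knockout and 1.46 to 1.48 CPM in wild type. Optc was at 12 to 22.3 CPM in knockout and 24.3 to 37.9 CPM in wild type. Of the 4 ciliary and vitreous markers, Optc among them, 2 were lower in knockout without overlap and 0 higher. Slc4a4 of that list overlapped, at 19 to 25.2 CPM in knockout and 12.7 to 22.6 CPM in wild type. The sum of the 4 overlapped as well, at 32.8 to 50.1 CPM in knockout and 40.2 to 65.3 CPM in wild type. The part of these in the collagen differences was not tested. With a sex term 12 members passed, all lower. Without 12-month knockout library 1 or 12-month wild-type library 1 the count was 7, and without 12-month wild-type library 3 it was 6. For these fits and the sex term the share of all tested genes is not given here.

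Col23a1 (ENSMUSG00000063564), a transmembrane collagen whose ectodomain can be shed, had the smallest p. It was at 36.1, 34.8 and 42.1 CPM in 12-month knockout, against 60.0, 56.1 and 60.7 CPM in 12-month wild type. At P28 it was at 88.9, 69.3 and 72.8 CPM in P28 knockout, against 68.3, 57.8 and 66.1 CPM in P28 wild type. The 12-month knockout libraries were the 3 lowest of all 12, while at P28 the knockout libraries lay above the wild type. The 12-month difference was -0.64 ± 0.11 (SE; limma adjusted p = 0.00298) and the P28 difference 0.26 ± 0.11 (SE; limma adjusted p = 0.208).

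Col2a1 (ENSMUSG00000022483), the chain of type II collagen in the vitreous, was at 7.84, 8.27 and 14 CPM in 12-month knockout, against 17, 17.5 and 24.1 CPM in 12-month wild type. The P28 values were 17, 13.1 and 11.9 CPM in P28 knockout, against 11.9, 7.89 and 12 CPM in P28 wild type. All 3 wild-type libraries of 12 months were above every knockout one, a difference of -0.92 ± 0.23 (SE; limma adjusted p = 0.00859). Of its summed RPKM, 25.5% and 19.0% were in 2 annotated retained-intron forms. Col5a1, which seeds fibril assembly, was lower, at -0.64 ± 0.21 (SE; limma adjusted p = 0.0267).

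The beaded filament chains Col6a1 and Col6a2, which assemble with a chain such as that of Col6a3, were both lower in 12-month knockout than in 12-month wild type. Col6a1 was at 17.1, 15.8 and 23.3 CPM in 12-month knockout, against 29.9, 26 and 39.3 CPM in 12-month wild type. Its levels at P28 were 37, 28.2 and 25.8 CPM in P28 knockout, against 26, 35.1 and 30.4 CPM in P28 wild type. The 12-month groups did not overlap, and Col6a1 was lower in knockout, with a difference of -0.73 ± 0.19 (SE; limma adjusted p = 0.0104). Col6a2 was at 1.07, 1.33 and 1.06 CPM in 12-month knockout, against 2.81, 1.53 and 3.54 CPM in 12-month wild type. At P28 it was at 3.55, 2.5 and 2.04 CPM in P28 knockout, against 3.69, 3.04 and 2.33 CPM in P28 wild type. Its difference at 12 months was -0.71 ± 0.22 (SE; limma adjusted p = 0.0229).

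Col8a2, a short-chain network collagen known from the corneal Descemet membrane, was at 1.14, 1.7 and 0.741 CPM in 12-month knockout, against 4.04, 6.15 and 2.18 CPM in 12-month wild type. The P28 values were 2.78, 2.12 and 3.7 CPM in P28 knockout, against 1.92, 1.91 and 3.57 CPM in P28 wild type. It was lower in knockout at 12 months, with a difference of -1.17 ± 0.29 (SE; limma adjusted p = 0.00852). Col7a1, the chain of anchoring fibrils, was at 2.42, 1.89 and 2.96 CPM in 12-month knockout, against 7.11, 4.86 and 6.27 CPM in 12-month wild type. Its levels at P28 were 4.18, 7.34 and 2.32 CPM in P28 knockout, against 4.05, 4.85 and 3.38 CPM in P28 wild type. It was lower in knockout at 12 months, with a difference of -1.05 ± 0.27 (SE; limma adjusted p = 0.011), and 61.1 to 83.3% of its RPKM lay in an annotated retained-intron form. Col20a1, a fibril-associated collagen, was at 4.28, 2.71 and 8.51 CPM in 12-month knockout, against 13.4, 11.3 and 14.3 CPM in 12-month wild type. At P28 it was at 7.63, 11.1 and 4.61 CPM in P28 knockout, against 11.9, 10.8 and 6.29 CPM in P28 wild type. It had the largest 12-month difference among the called members, -1.29 ± 0.34 (SE; limma adjusted p = 0.0114). Col26a1 was at 1.2, 0.615 and 1.16 CPM in 12-month knockout, against 2.5, 2.42 and 1.96 CPM in 12-month wild type. The P28 values were 1.8, 1.71 and 1.47 CPM in P28 knockout, against 1.09, 1.32 and 1.3 CPM in P28 wild type. It was lower in knockout at 12 months, with a difference of -0.74 ± 0.15 (SE; limma adjusted p = 0.00405). The 12-month groups did not overlap for any of these 4. The largest adjusted p-values among the called members were those of Col17a1 at -0.66 ± 0.22 (SE; limma adjusted p = 0.034) and Col9a2 at -0.55 ± 0.20 (SE; limma adjusted p = 0.0452).

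Collagen transcripts were GC-rich and long compared with other genes, with a median GC content of 54.5% against 48.5% of all tested genes and a median length of 5459 against 2681 bases. All 11 called members lay in the GC-richest of 4 equal bins of genes, at 53.2% or more, which held 22 tested collagens. In that bin 64.9% of all genes were lower in 12-month knockout, and in the GC-poorest bin 0.344%. With the GC and length trends removed from each library 0 members passed in limma and 4 had an unadjusted p under 0.05, where 6.64% of all genes did. The median member difference was then -0.02, and Col9a2 turned to 0.14 (adjusted p = 0.719). The share of all tested genes that passed in limma after the removal is not given here. The count of 0 is therefore not read as particular to collagens. The plot of differences against GC content shows the slope in the deposited values and none after removal, which by construction takes that slope out over all genes. What made the libraries differ by GC content was not tested.

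**Figure D5:**
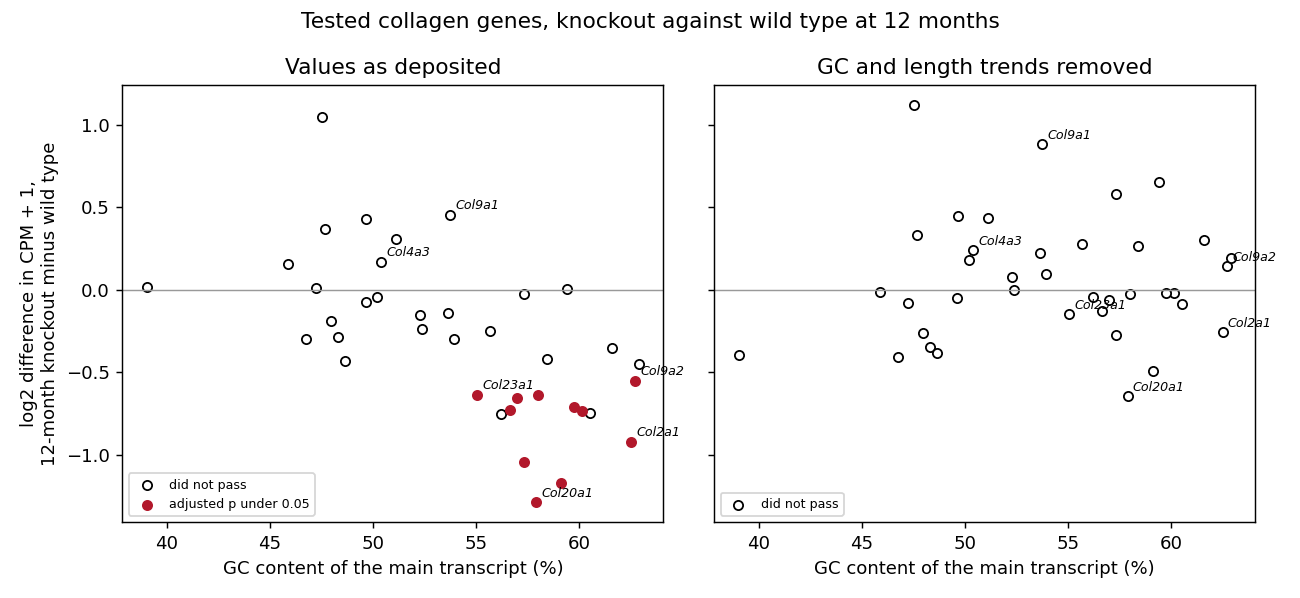
Knockout minus wild-type difference at 12 months in log2(CPM + 1) against the GC content of the main transcript for the 38 tested collagen genes, from the deposited values on the left and after removal of GC and length trends on the right; filled points passed. The 11 filled points on the left all lie at 55.05% GC or above, and the right panel has none.

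At P28 1 member passed between knockout and wild type, Col11a1, against 1.49% of all tested genes (1% higher and 0.491% lower). Col11a1 (ENSMUSG00000027966), a fibrillar chain that sets the width of type II fibrils, was at 27.3, 21.2 and 24.5 CPM in P28 knockout, against 14.9, 13.8 and 16.3 CPM in P28 wild type. Its 12-month values were 14, 17.6 and 20.1 CPM in 12-month knockout, against 18.6, 18.9 and 21.3 CPM in 12-month wild type. The P28 knockout libraries were all above the P28 wild type. Their lowest, at 21.2 CPM, was just under the highest 12-month wild-type library, at 21.3 CPM. The difference was 0.66 ± 0.14 (SE; limma adjusted p = 0.0412) at P28 and -0.19 ± 0.14 (SE; limma adjusted p = 0.295) at 12 months. Libraries did not overlap for 6 members, 5 higher (Col6a4, Col11a1, Col22a1, Col23a1 and Col26a1) and 1 lower (Col19a1) in knockout, against 23.8% of all genes (10.5% higher and 13.2% lower). The median member difference was 0.26, with 32 members above 0, and that of all tested genes -0.01. All 10 fibrillar genes and all 8 basement membrane genes had a difference above 0.

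The Col11a1 call was kept in 4 of the 12 fits that left out 1 library. It was lost with a sex term, at 0.80 (adjusted p = 0.147), where 2 of 3 P28 knockout and 0 of 3 P28 wild-type libraries were female. It was also lost with only the groups compared (adjusted p = 0.23), after removal of the GC and length trends (0.45, adjusted p = 0.124), without a filter on low values (adjusted p = 0.0773), with a replicate block (adjusted p = 0.0664) and in summed RPKM (adjusted p = 0.0631). Marker sums that did not overlap at P28 were those of rods, given above, Mueller glia and erythrocytes. Mueller glia markers summed to 2130 to 2176 CPM in knockout, against 2275 to 2416 CPM in wild type, and erythrocyte markers to 12.1 to 22.9 CPM in knockout, against 31.5 to 48.05 CPM in wild type. Taken singly, only 1 of the 5 Mueller glia markers, Rlbp1, was lower in P28 knockout without overlap, and 0 were higher. The part of these markers in the P28 differences was not tested. The count of members was 8 without P28 knockout library 2 and 0 without P28 knockout library 1 or 3 or without any 1 wild-type library of either age. Shares of all tested genes in these fits are not given here, so the moves are not read as particular to collagens. Without all 3 lens-rich libraries 10 members passed, 9 higher and 1 lower, where 10.6% of all genes passed. Among them were Col11a1 at 0.81 (adjusted p = 0.0187), Col5a3 at 1.13 (adjusted p = 0.00996), Col25a1 at 0.66 (adjusted p = 0.0353) and Col19a1 at -0.62 (adjusted p = 0.0434). Col25a1, a transmembrane collagen that neurons make and the sixth highest per length, was at 37.5, 25.2 and 47.6 CPM in P28 knockout, against 21.9, 31.6 and 27.9 CPM in P28 wild type. Its 12-month values were 28.6, 35.3 and 29.8 CPM in 12-month knockout, against 25.3, 28 and 30.2 CPM in 12-month wild type. With all libraries its difference was 0.39 ± 0.20 (SE; limma adjusted p = 0.263) at P28 and 0.16 ± 0.20 (SE; limma adjusted p = 0.536) at 12 months, and neither passed.

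The knockout effect at 12 months minus that at P28 passed for 1 member, Col23a1, at -0.89 ± 0.16 (SE; limma adjusted p = 0.0478), against 0.176% of all tested genes (0.0789% higher and 0.0971% lower). Of the 38 members 35 had a difference below 0, with a median of -0.63 against -0.05 for all tested genes. The call was kept in 3 of the 12 fits without 1 library, those without P28 knockout library 2, P28 knockout library 3 and 12-month knockout library 3, which gave 3, 7 and 4 members, and the other 9 gave 0. Female libraries were in P28 knockout and 12-month wild type only, so sex runs along with this difference. With a sex term the Col23a1 difference was -1.15 (limma adjusted p = 0.158) and did not pass. With GC and length trends removed the Col23a1 difference was -0.39 (adjusted p = 0.248). The age effects of Col23a1 that make up this difference were -1.01 ± 0.11 (SE; limma adjusted p = 9.27e-05) in knockout and -0.12 ± 0.11 (SE; limma adjusted p = 0.616) in wild type.

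The enzymes, chaperones, receptors and proteases that handle collagen formed a list of 53 genes, of which 44 were tested. Between knockout and wild type 0 passed in limma at P28, where 1.49% of all tested genes passed, with 4 at an unadjusted p under 0.05. At 12 months 3 were higher and 7 lower in knockout, 22.7% of the 44 where 39.6% of all tested genes passed (16.1% higher and 23.5% lower), with Ddr1, a collagen-binding receptor kinase, at -0.73 ± 0.13 (SE; limma adjusted p = 0.00293) and Mrc2, a collagen uptake receptor, at -0.77 ± 0.14 (SE; limma adjusted p = 0.00332). The lysyl hydroxylase genes Plod3 and Plod2 went opposite ways, at -1.18 ± 0.23 (SE; limma adjusted p = 0.00346) and 0.53 ± 0.12 (SE; limma adjusted p = 0.00658). The handling genes are given from the deposited values only, and the part of the GC trend in their differences is not given here. Between 12 months and P28 in knockout 16 were lower and 0 higher, where 13.9% of all tested genes were lower and 13.3% higher, led by Sparc, a collagen-binding matricellular protein, at -1.88 ± 0.26 (SE; limma adjusted p = 0.000461). Plod1, Ddr1 and the integrin gene Itga1 followed, at -0.90 ± 0.14 (SE; limma adjusted p = 0.00127), -0.70 ± 0.13 (SE; limma adjusted p = 0.00242) and -0.996 ± 0.18 (SE; limma adjusted p = 0.00248). In wild type 2 passed, both lower, where 5.4% of all tested genes passed, 1.75% lower. They were Sparc at -1.56 ± 0.26 (SE; limma adjusted p = 0.00316) and the integrin gene Itgb1 at -0.67 ± 0.14 (SE; limma adjusted p = 0.0121). The knockout effect at 12 months minus that at P28 passed in limma for 0 of the 44, where 0.176% of all tested genes passed, with 8 at an unadjusted p under 0.05. Shares of all tested genes at that unadjusted threshold are not given here. The counts at P28 and for the difference between ages are therefore not read as particular to this list.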

How the data were processed

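The gene table holds a signal that the authors deposited under the name CPM. Per the submitters' processing notes and the series text, transcript estimates from kallisto 0.45.0 with Ensembl 102 annotation were summarised with tximport 1.30.0, and the CPM were TMM normalized with edgeR 4.0.3. The notes name the human build GRCh38.p7, but the deposited identifiers and coordinates are mouse, GRCm38. The transcript table is in RPKM, deposited by the authors, and its scaling is not given in the sources used here. TruSeq stranded libraries were read as 125-base pairs, per the labels' protocols. Only 11.0 to 28.4% of low values were whole reads to within 0.01, so reads were not recovered and no count test was run.

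For the 16486 genes that reached a CPM of 1 in 3 or more libraries, limma 3.58.1 (R 4.3.3) was fitted to log2(CPM + 1), with 4 group means, a trended eBayes step and Benjamini-Hochberg adjustment over all tested genes at 0.05, in 5 contrasts. A pseudocount of 1 understates changes of low genes. Transcript GC content and length, from GENCODE vM21, were known for 98.7% of tested genes and all 38 tested members, and trends were removed with splines of 5 degrees of freedom. The fit and the removal were tested on simulated data. Alternatives covered pseudocounts, filters, scaling, RPKM, a replicate block, sex, the GC and length trends and each library left out. Members, classes and lists were chosen with earlier results of these data known. Values in every library are given for members that passed in any contrast, up to 8 a contrast by smallest p, and for the 8 of highest mean RPKM, and handling genes are named up to 4 a contrast. Figures were made with Python and matplotlib. The Col4a6 copy on a patch chromosome repeats the primary values and was left out. 1 lens marker gene of the planned list is not reported here. Raw reads were not analysed here.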

Additional observations from a re-analysis of the deposited data

Results flagged for a closer look

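Col23a1, a transmembrane collagen, was flagged because the knockout effect differed between the ages by the test of that difference itself. The knockout minus wild-type difference at 12 months less that at P28 was -0.89 on the log2(CPM + 1) scale (limma adjusted p = 0.0478). All 3 knockout libraries lay below the wild type at 12 months, and all 3 lay above it at P28. With a sex term the difference was -1.15 (limma adjusted p = 0.158) and did not pass. In the GC and length corrected values the difference was -0.39 (adjusted p = 0.248).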

How the results depend on the processing

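Same-numbered deviations correlated between -0.33 and 0.31. For knockout against wild type at 12 months all 3 pairs were above 0, at 0.0989, 0.309 and 0.156, and in the other contrasts the signs were mixed. With 3 pairs a contrast these correlations cannot settle whether the replicate numbers pair the libraries. With a replicate block the count of called members was 0 for knockout against wild type at P28 (1 without it), 11 at 12 months, 17 for age in knockout, 5 for age in wild type and 0 for the difference between ages (1 without it). For knockout against wild type at P28 the count, 1 as reported, was 0 with no filter on low values, summed RPKM, a fit of only the groups compared, GC and length trends removed, these with the block, and a sex term. It was 5 without P28 knockout library 2 and P28 wild-type library 3 and 10 without all 3 lens-rich libraries. At 12 months the count of 11 was 7 with no filter and 0 with the trends removed, with or without the block, where Col9a2 turned to 0.14 in both. For age in knockout the count of 16 was 10 with no filter, 10 with only the groups compared, 8 with the trends removed, 7 with these and the block, and 22 without P28 knockout library 2 and P28 wild-type library 3. For age in wild type the count of 5 was 3 with no filter, 11 with only the groups compared and 2 with a sex term. For the difference between ages the count of 1 was 0 with no filter, quantile normalization, RPKM, the trends removed, these with the block, and a sex term, 2 without P28 knockout library 2 and P28 wild-type library 3, and 3 without all 3 lens-rich libraries. The difference uses all 4 groups, so a fit of only the groups compared does not exist for it. Leaving out 1 library gave 0 to 8, 6 to 11, 7 to 21, 2 to 9 and 0 to 7 called members in the same order of comparisons. These counts are given without the share of all tested genes in the same fit, so a move may not be particular to collagens. With no filter more genes share the adjustment, and the cause of the other changes was not tested. Of 3453 values of single genes under an alternative, 3178 kept their side of the threshold and direction, 193 no longer passed, 80 newly passed and 2 turned. Depth limits the 6 members under the filter and those near a CPM of 1, where 3 reads are 0.111 to 0.192 CPM.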
